A study of Petromyzon marinus with 2 samples.

Results

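EYS (MSTRG.5966 in the deposited gene list) is 1 of the 24979 genes measured in the adult sea lamprey retina, and it was chosen because earlier results of these data placed much of its RNA outside photoreceptors. Its level is described here in cells with UMIs of GAD1, in those cells by their UMIs of TMEM121 and CXCL14, and in cells with UMIs of CNGB1-1 (MSTRG.4782) or ARRB1.3 (MSTRG.12092), the photoreceptor gate. A UMI, or unique molecular identifier, marks 1 captured transcript. Because EYS and these 5 gating genes were picked from the same counts, their levels are given as descriptions without a test.

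The study measured single cells from retinas of Petromyzon marinus, a jawless vertebrate, to compare its cell types with those of jawed vertebrates. The animals were post-metamorphic, sexually mature adults held on a daily light and dark cycle. Retinas were dissociated with papain, and the labels add a sort of the cells without naming a marker. There were 2 replicate libraries of the same tissue and no other condition, described as biological replicates, and the labels do not tie a library to its animals.

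EYS encodes a large secreted protein of the extracellular matrix with EGF and laminin G domains. In Drosophila its homolog, eyes shut or spacemaker, is needed for the space between the light-sensing rhabdomeres and acts with Prominin. In human, loss of EYS causes autosomal recessive retinitis pigmentosa, and in zebrafish the protein lies at photoreceptors. The mouse genome lacks a working copy. GAD1 encodes an enzyme of GABA synthesis, and the study used TMEM121 to name a subgroup of lamprey ganglion cells.

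After filtering, replicate 1 held 12903 cells and replicate 2 held 15936 cells, with medians of 4929 and 5561.5 UMIs per cell. Both libraries held 83 barcodes in common, whose cells gave 46 of the 7087 EYS UMIs. Among the 51 clusters built without EYS and the gating genes, 49 reached 20 cells in both libraries.

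EYS was a sparse transcript that a small part of the cells held at high level. Replicate 1 gave 3483 EYS UMIs (39.7 CPM, counts per 1e6 UMIs) and replicate 2 gave 3604 (30.7 CPM). At least 1 EYS UMI was present in 10.2% of cells in replicate 1 and 10.8% in replicate 2. The cells with the most EYS held 50% of its UMIs within 197 cells (1.53%) of replicate 1 and 336 cells (2.11%) of replicate 2. The highest cell had 36 UMIs in replicate 1 and 46 in replicate 2. EYS RNA was therefore unevenly spread, with most cells at 0 UMIs in each library.

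GAD1-positive cells, with at least 1 GAD1 UMI, held most of the EYS RNA. These 8715 and 11544 cells gave 91.6% of EYS UMIs in replicate 1 and 89.7% in replicate 2. They were 67.5% and 72.4% of all cells, and deeper than GAD1-negative cells (medians of 6605 and 6685.5 UMIs, against 1931 and 2916). Their EYS level was 44.5 CPM in replicate 1 and 33.5 CPM in replicate 2 (39.0 ± 7.76, mean ± SD, n = 2). All cells together had 39.7 CPM and 30.7 CPM. GAD1-positive cells thus held a larger share of EYS UMIs than of all UMIs, in the proportion of these levels. Cells without a GAD1 UMI had 18.1 CPM and 17.7 CPM (17.9 ± 0.31, n = 2). The libraries of GAD1-positive and GAD1-negative cells did not overlap in EYS level.

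The gate of 1 GAD1 UMI also took in cells of other kinds. In the 9 clusters defined by SLC32A1, which encodes the vesicular transporter of GABA and glycine, between 42.8% and 55.9% of cells had a GAD1 UMI, whereas no cluster of the GAD1 group fell below 91.3%. Cells with 1 or 2 GAD1 UMIs had EYS at 27.2 CPM in replicate 1 and 22.6 CPM in replicate 2. Cells with 3 or more had 48.7 CPM and 36.5 CPM. Higher GAD1 counts thus went with higher EYS levels in both libraries, and the cells with 3 or more also held more UMIs (medians of 9556 and 8542, against 2269.5 and 3226). Outside the 2 clusters of highest EYS level, numbered 46 and 9 below, GAD1-positive cells had 20.8 CPM and 23.3 CPM. Cells without a GAD1 UMI, over all clusters, had 18.1 CPM and 17.7 CPM. The bins of GAD1 counts were not compared outside these clusters.

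EYS was higher in cells with at least 2 TMEM121 UMIs than in cells with 0 in both libraries. In replicate 1, GAD1-positive cells with 0, 1, 2 and at least 3 TMEM121 UMIs had EYS at 26.4, 41.2, 73.1 and 113 CPM. In replicate 2 the same bins had 30.4, 29.1, 37.2 and 48.7 CPM. The ratio of EYS between cells with and without TMEM121 was 3.23 in replicate 1 and 1.36 in replicate 2 (2.29 ± 1.32, n = 2). All TMEM121-positive cells, pooled, were higher in both libraries, although in replicate 2 cells with 1 TMEM121 UMI were not above those with 0.

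CXCL14, which encodes a secreted chemokine, separated EYS levels further. In replicate 1, GAD1-positive cells with 0, 1, 2 and at least 3 CXCL14 UMIs had EYS at 26.5, 90.2, 156 and 182 CPM. In replicate 2 they had 27.0, 45.3, 61.0 and 99.6 CPM. Each bin was above the one before it in both libraries. The ratio between cells with and without CXCL14 was 5.28 in replicate 1 and 2.52 in replicate 2 (3.9 ± 1.95, n = 2).

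**Figure D1:**
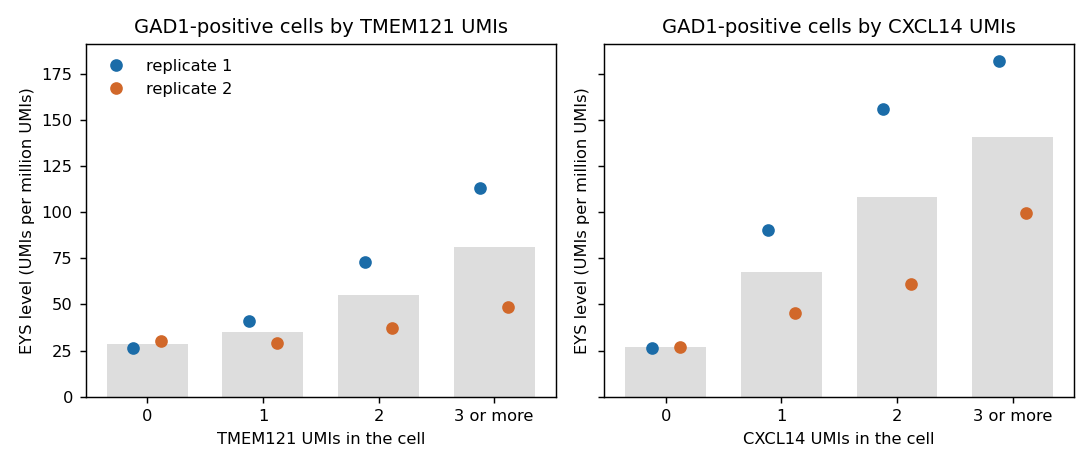
EYS level (vertical axis, CPM) in GAD1-positive cells by the number of TMEM121 UMIs (left) or CXCL14 UMIs (right) in the cell. Points are the libraries and bars their mean; the CXCL14 bins increase in both libraries, from 26.5 to 182 CPM in replicate 1 and from 27.0 to 99.6 CPM in replicate 2.

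Cells with both TMEM121 and CXCL14 carried the excess. These 601 and 776 cells had EYS at 177 CPM in replicate 1 and 84.4 CPM in replicate 2, with an EYS UMI in 48.4% and 35.4% of them. With TMEM121 alone the level was 31 CPM and 16.8 CPM. With CXCL14 alone it was 44.7 CPM and 37.2 CPM, and with neither it was 25.1 CPM and 29.8 CPM. TMEM121 without CXCL14 therefore overlapped the cells that had neither gene.

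The cells with both genes were deeper, with medians of 12406 and 11694 UMIs, than those with neither (5443 and 5804.5). When every cell was thinned to 4000 UMIs, 32.3% and 20.8% of cells with both genes kept an EYS UMI, against 6.0% and 7.97% of cells with neither. The order in both libraries was the same after thinning.

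Most of the pattern by TMEM121 and CXCL14 came from 1 cluster. Clusters were numbered from 1, and their EYS level was not used to form them. Cluster 9 (404 and 431 cells) had EYS at 365 CPM in replicate 1 and 185 CPM in replicate 2 (275 ± 128, n = 2). It held 32.4% of all EYS UMIs in 2.90% of the cells. In it 95.9% of cells had a GAD1 UMI, 86.5% TMEM121 and 81.3% CXCL14, and its leading genes included PRDM8, ZFHX3, MOXD1, ACTN2 and TTN.

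Cluster 9 held 44.9% of the GAD1-positive cells with both TMEM121 and CXCL14. Its cells with both genes had EYS at 359 CPM and 188 CPM. Outside it, cells with both genes had 28.7 CPM and 27.4 CPM. Over the GAD1-positive cells left when clusters 9 and 46 were set aside, those with neither gene had 19.9 CPM and 24.8 CPM. The libraries of these states did not overlap, so a smaller difference remained. Without cluster 9, an alternative chosen after seeing the data, the EYS ratio for TMEM121 was 0.789 and that for CXCL14 was 1.14, so the first turned its direction.

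Within cluster 9 the EYS level did not follow TMEM121 or CXCL14. Cells with both had 359 CPM in replicate 1 and 187 CPM in replicate 2. The 33 and 22 cells with neither had 359 CPM and 264 CPM, from 20 and 19 EYS UMIs. Cells with TMEM121 alone had 453 CPM and 168 CPM. The states overlapped between the libraries, and replicate 1 was above replicate 2 in each of them.

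Cluster 14 combined TMEM121 and CXCL14 with little EYS. TMEM121 was detected in 76.9% of its cells and CXCL14 in 74.2%, close to the shares in cluster 9. EYS was at 12.7 CPM in replicate 1 and 6.26 CPM in replicate 2 (9.48 ± 4.56, n = 2). An EYS UMI was present in 7.89% of its cells in replicate 1 (exact Clopper-Pearson 95% interval 5.01 to 11.7) and 4.98% in replicate 2 (3.07 to 7.58), where the interval covers counting error only. Cluster 14 was below the median of all clusters, 15.3 CPM, in both libraries.

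Cluster 31 lay between them. TMEM121 was in 73.7% of its cells and CXCL14 in 36.4%, and EYS was at 59.2 CPM and 42.9 CPM. Its cells with both genes had 43.2 CPM and 48.6 CPM, and those with neither had 55.2 CPM and 42.2 CPM.

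**Figure D2:**
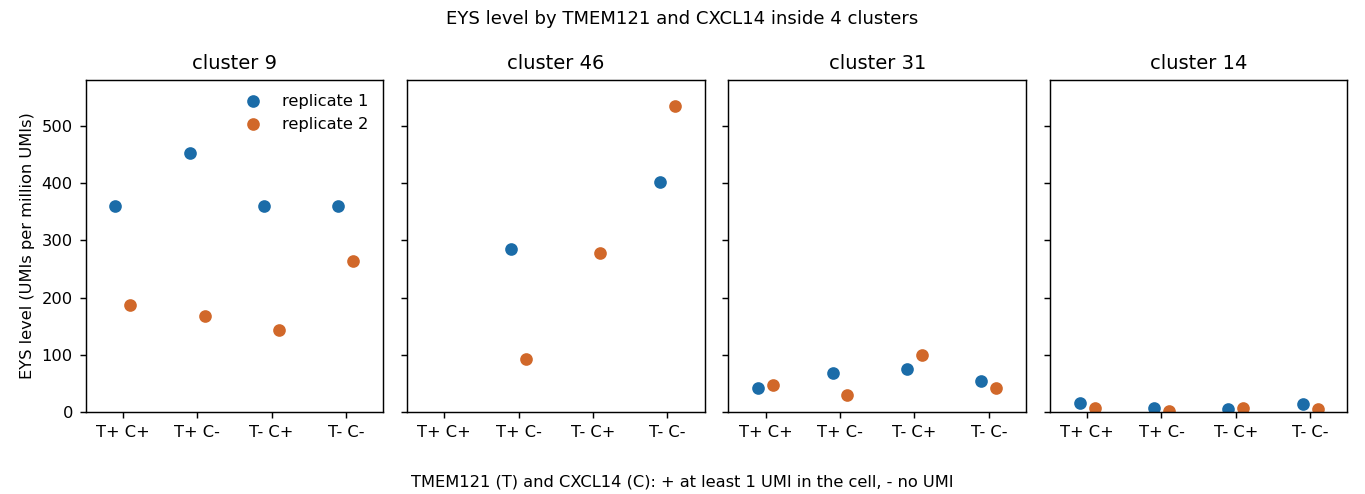
EYS level (vertical axis, CPM) by presence of TMEM121 (T) and CXCL14 (C) UMIs inside clusters 9, 46, 31 and 14, with a point for each library where such cells exist. Cluster 9 stays at 143 CPM or more in all 4 states and cluster 14 at 15.7 CPM or less.

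The highest EYS level was in cells that mostly lacked TMEM121 and CXCL14. Cluster 46 (73 and 92 cells) had EYS at 377 CPM in replicate 1 and 481 CPM in replicate 2 (429 ± 73.5, n = 2). It held 8.68% of EYS UMIs in 0.572% of cells. All of its cells had a GAD1 UMI, while 13.9% had TMEM121 and 2.42% CXCL14. Its leading named genes were PCDH9, a protocadherin, TFCP2L1, CHRM4, a muscarinic receptor, PACS1, THSD7A and NAV2.

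Cluster 46 had the higher level in both libraries and cluster 9, before thinning, the larger share of cells with EYS. An EYS UMI was present in 54.8% and 55.4% of the cells of cluster 46 and in 70.05% and 56.8% of the cells of cluster 9. With cells thinned to 4000 UMIs this order held in replicate 1 and turned in replicate 2. Cluster 46 then had 32 cells with and 36 without EYS in replicate 1, and 34 and 43 in replicate 2. Cluster 9 had 197 and 135, and 149 and 227. Of the 100 cells with most EYS UMIs, these clusters held 87 in replicate 1 and 58 in replicate 2. In replicate 1 cluster 9 held 74 of them and cluster 46 held 13. In replicate 2 the numbers were 41 and 17.

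The level of EYS over the 22 clusters of the GAD1 group ran from 2.62 to 429 CPM (means of the libraries), with a median of 20.2 CPM. Cluster 51, led by CCKAR, which encodes a cholecystokinin receptor, had 115 CPM in replicate 1 and 63.0 CPM in replicate 2. Cluster 24 had 74.2 CPM and 70.8 CPM, and cluster 13 had 44.8 CPM and 76.7 CPM. These clusters stood above the group's median in both libraries. The same group also held 2 clusters that stayed under 10 CPM in each library.

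**Figure D3:**
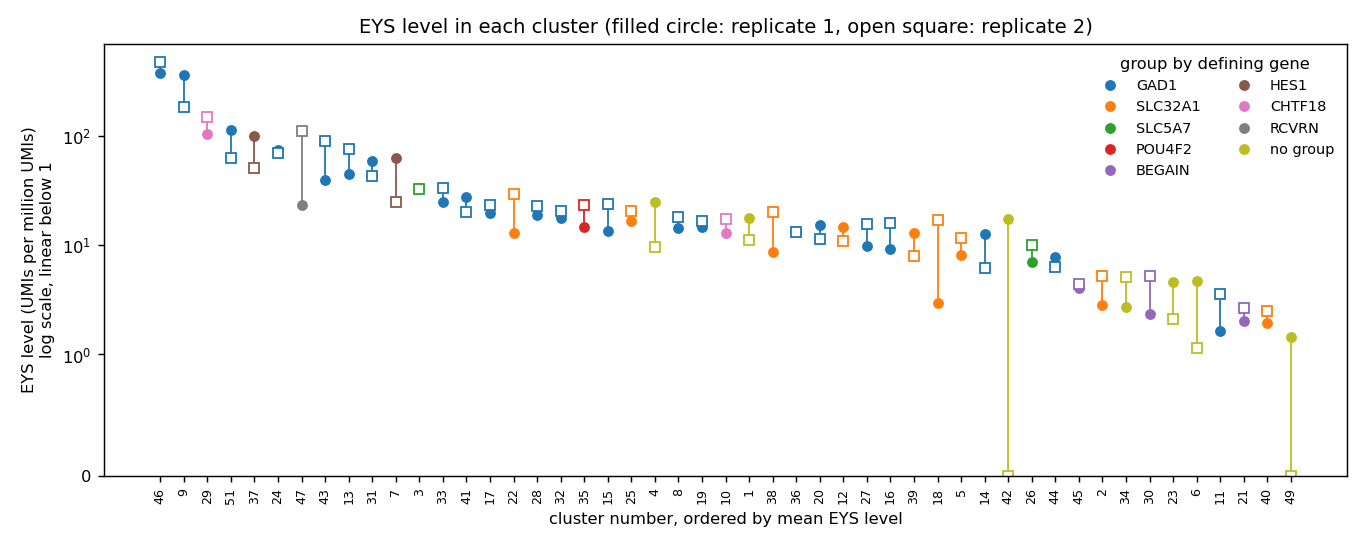
EYS level (vertical axis, CPM, log scale that is linear below 1) in the 49 clusters that reached 20 cells in both libraries, ordered by mean level and coloured by the gene that defines the group. Clusters 46 and 9 lie above the rest in both libraries, and 44 of the 48 neighbouring pairs in the order overlap.

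EYS was also found outside the GAD1 group. In the clusters defined by HES1, a glial transcription factor gene, the level was 65.7 CPM in replicate 1 and 27.8 CPM in replicate 2. Cluster 29 is listed by its leading genes, the complexin genes CPLX4 and CPLX3, without its group, and is not counted here as a HES1 cluster. It had 105 CPM and 150 CPM from 45 and 146 EYS UMIs. Its cells differed in depth between libraries, with medians of 827 and 8331 UMIs. The CHTF18 group described below had similar medians, 839.5 and 8351.5 UMIs, and its cells may include those of cluster 29. Cluster 29 was above 100 CPM in both libraries, as were only clusters 46 and 9.

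Cholinergic cells, defined by the choline transporter gene SLC5A7, had 26.8 CPM and 27.2 CPM. The group with POU4F2, a ganglion cell gene, had 14.7 CPM and 23.4 CPM, and the SLC32A1 group had 8.63 CPM and 13.1 CPM. The BEGAIN group had the lowest level, 2.56 CPM and 3.47 CPM, with an EYS UMI in 2.28% and 3.1% of its cells at medians of 5608 and 7585 UMIs. The group defined by CHTF18, a gene of the bipolar marker list, had 31.7 CPM and 49.5 CPM, at medians of 839.5 and 8351.5 UMIs. Of the 8 neighbouring pairs in the order of groups, 4 overlapped between the libraries. The first 4 groups of the order, RCVRN, GAD1, HES1 and CHTF18, overlapped each with the next, and CHTF18 stood above SLC5A7 in both libraries.

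Photoreceptor-gated cells and GAD1-positive cells overlapped in EYS level. At least 1 UMI of CNGB1-1, a subunit gene of the cyclic nucleotide-gated channel, or ARRB1.3, an arrestin gene, was present in 817 cells of replicate 1 and 674 cells of replicate 2. Their EYS level was 31.2 CPM and 34.5 CPM (32.9 ± 2.31, n = 2), below GAD1-positive cells in replicate 1 and slightly above them in replicate 2. The level in GAD1-positive cells with TMEM121 and CXCL14 was 5.66 times that of gated cells in replicate 1 and 2.45 times in replicate 2 (4.05 ± 2.27, n = 2).

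Most gated cells did not carry other photoreceptor genes. RCVRN, which encodes the photoreceptor calcium-binding protein recoverin, was detected in 3.96% of them and in 0.538% of all other cells. The clusters in which RCVRN was raised held 8.52% of the gated cells. GAD1 was detected in 71.8% of gated cells and in 70.2% of the others. ARRB1.3 was found in 1.5% to 9.52% of cells in the clusters outside the RCVRN group, so its gate was not specific to that group, and CNGB1-1 was found in at most 1.14%.

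The genes of the gate gave different pictures of EYS. Cells with ARRB1.3 had 31.1 CPM in replicate 1 and 29.4 CPM in replicate 2, near the level of all cells. The 61 and 80 cells with CNGB1-1 had 32.3 CPM and 78.3 CPM, from 14 and 45 EYS UMIs. An EYS UMI was present in 13.1% of them in replicate 1 and in 28.8% in replicate 2. RCVRN was in 23.4% of CNGB1-1 cells and in 2.28% of ARRB1.3 cells.

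Inside the RCVRN clusters, the cells best supported as photoreceptors, the libraries disagreed. The 132 cells of replicate 1 had 8 EYS UMIs (29.1 CPM) and the 79 cells of replicate 2 had 36 (107 CPM), at medians of 946.5 and 1663 UMIs. The gated cells among them had 27.1 CPM and 112 CPM. The RCVRN clusters also differed in make-up between the libraries. RCVRN was in 15.9% of their cells in replicate 1 and 45.6% in replicate 2, and GAD1 in 37.9% and 50.6%. The spread between the libraries, an SD of 55.3 CPM around a mean of 68.2 CPM, left the level of EYS in photoreceptors undetermined. The parts of depth and make-up in this spread were not tested. Cluster 9 was above the RCVRN clusters in each library.

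**Figure D4:**
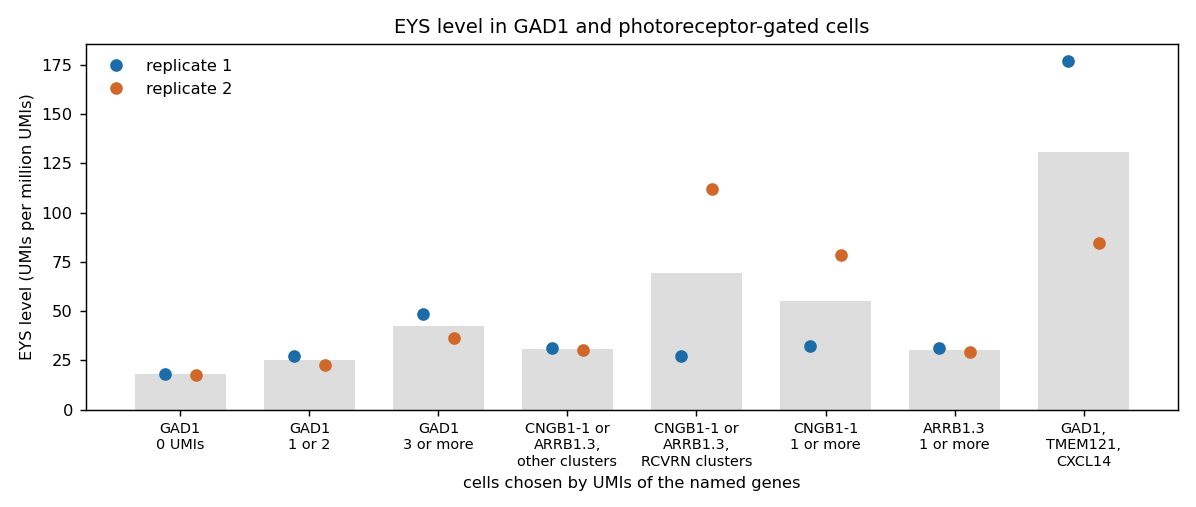
EYS level (vertical axis, CPM) in cells chosen by UMIs of GAD1, of the photoreceptor gate genes CNGB1-1 and ARRB1.3 inside or outside the RCVRN clusters, and of GAD1 with TMEM121 and CXCL14. Points are the libraries and bars their mean; gated cells in the RCVRN clusters were at 27.1 CPM in replicate 1 and 112 CPM in replicate 2, and gated cells elsewhere at 31.4 and 30.2 CPM.

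Genes that went with EYS were then tested in GAD1-positive cells thinned to 4000 UMIs, by summing cells with and without an EYS UMI in each library. In all GAD1-positive cells the sums held 551 and 747 EYS-positive cells and 5308 and 7448 EYS-negative cells. Genes higher in EYS-positive cells included the transcription factor genes GRHL2 and PRDM8. Of 14997 genes tested, 149 (0.994%) were higher and 143 (0.954%) lower in EYS-positive cells, at least 2-fold with an adjusted p under 0.05 in edgeR's quasi-likelihood test with the library as a block. The largest differences in genes at more than a few UMIs included those of GRHL2, ACTN2 and CCKAR.

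GRHL2, a grainyhead-like transcription factor gene, was at 27.9 and 23.3 CPM in EYS-positive cells against 4.86 and 4.92 CPM in EYS-negative cells (log2 fold change 2.37 ± 0.20 SE, edgeR adjusted p = 1.8e-07). ACTN2, which encodes the actin crosslinker alpha-actinin of striated muscle, was at 81.3 and 27.4 CPM against 12.4 and 9.68 CPM (2.18 ± 0.20, edgeR adjusted p = 5.2e-07). CCKAR was at 65.3 and 34.9 CPM against 12.6 and 12.5 CPM. All of these EYS-positive sums lay above the EYS-negative sums of both libraries, and ACTN2 and CCKAR were higher in replicate 1.

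PRDM8, a transcription factor gene of amacrine and bipolar cells in mouse, was at 510 and 275 CPM against 158 and 147 CPM (1.3 ± 0.12, edgeR adjusted p = 4.11e-07). CALD1, which encodes the actin-binding caldesmon, was at 15.5 and 26.1 CPM against 5.55 and 11.3 CPM. PRDM8 was the most abundant of the named genes that were higher.

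FEZF1, RGSL1, MYOM1, CHRNG and PTX3 were also called higher, at 31.5 CPM or less. CHRNG and PTX3 were carried mainly by replicate 2, where CHRNG had 93 UMIs in the EYS-positive sum against 16 in replicate 1. FEZF1 rested on 5 and 6 UMIs.

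The lower genes were mostly sparse. BEGAIN was the abundant one, at 26.0 and 104 CPM in EYS-positive cells against 141 and 262 CPM in EYS-negative cells (-1.68 ± 0.14, edgeR adjusted p = 1.98e-07). INSM1, RBP4, ARPIN, FGFR2, CRYBA1, FBN2 and COL14A1 were called lower with 0 to 9 UMIs in each EYS-positive sum. SLC32A1 was at 61.2 and 55.5 CPM against 128 and 116 CPM (-1.07 ± 0.09, edgeR adjusted p = 2.43e-07). Without thinning it was at -0.83, under 2-fold.

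Photoreceptor markers were looked at in the same sums. CNGB1-1, a gene of the gate and therefore only described, was at 3.66 and 5.41 CPM in EYS-positive cells against 0.972 and 0.781 CPM. RCVRN was called higher (1.90 ± 0.47, edgeR adjusted p = 0.0135) although it was at 0.457 CPM in replicate 1 and 8.80 CPM in replicate 2 against 0.879 and 1.66 CPM, so the direction was that of replicate 2. With EYS-positive cells taken from 2 UMIs it was at -1.18 (edgeR adjusted p = 0.77), and thinned to 2000 UMIs at 0.67 (edgeR adjusted p = 0.76). Of 7 tested photoreceptor markers, from 26 listed, RCVRN was called, beside 0.994% of all genes tested called higher, and DESeq2 called 0 of the 7. The 7 include the gate genes CNGB1-1, which also passed the limits, and ARRB1.3, and neither is counted as a result. In these cells the summed markers, with the gate genes among them, gave 0.125 and 0.162 UMIs per EYS-positive cell of 4000 UMIs against 0.119 and 0.105. With cells of the photoreceptor gate left out, 151 genes were higher and 151 lower.

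Without the library block the same edgeR test called 0 genes higher and 0 lower, with 1079 genes at an unadjusted p under 0.05, and DESeq2 with the block called 98 and 60. Inside clusters of the GAD1 group, an alternative added after the data were seen, BEGAIN differed by 0.16 on the log2 scale (edgeR adjusted p = 0.65). That group leaves out clusters rich in BEGAIN by its rule, so this value is not read as a result. Without cluster 9 GRHL2 and ACTN2 were at 0.83 and 0.37 (edgeR adjusted p = 0.15 and 0.53) and PRDM8 at 0.27.

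The second comparison was restricted to GAD1-positive cells with TMEM121, with 281 and 241 EYS-positive cells and 1354 and 1786 EYS-negative cells. It shares cells with the first, so values are given side by side and not as independent support. Of 12280 genes tested, 228 (1.86%) were higher and 318 (2.59%) lower in EYS-positive cells. ACTN2 was at 145 and 67.7 CPM against 22.7 and 19.5 CPM (2.30 ± 0.18, edgeR adjusted p = 1.64e-09). GRHL2 was at 49.4 and 58.0 CPM against 12 and 12.7 CPM (2.12 ± 0.20, edgeR adjusted p = 3.59e-08), and CCKAR at 85.1 and 59.1 CPM against 19.3 and 14.1 CPM. The EYS-positive sums of these genes did not overlap the EYS-negative ones.

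Abundant genes were among those higher here. PRDM8 was at 846 and 602 CPM against 257 and 240 CPM, KNDC1 at 425 and 457 CPM against 153 and 147 CPM, and TTN, which encodes the sarcomere protein titin, at 298 and 308 CPM against 99.2 and 123 CPM. PLXND1, a semaphorin receptor gene, was at 104 and 172 CPM against 32.9 and 44.7 CPM (1.82 ± 0.13, edgeR adjusted p = 4.4e-10). ACTN2, PRDM8 and TTN are also leading genes of cluster 9. For PRDM8, KNDC1, TTN, PLXND1 and ACTN2 the EYS-positive sums of both libraries lay above the EYS-negative sums of both.

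FREM1, an extracellular matrix gene, was at 38.5 and 34.4 CPM against 8.95 and 11.7 CPM (1.82 ± 0.25, edgeR adjusted p = 7.66e-06). COL7A1, which encodes the collagen of anchoring fibrils, and PCLAF rested on 5 to 12 UMIs in each EYS-positive sum. CALD1 was at 24.7 and 33.3 CPM against 6.80 and 12.2 CPM.

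Among the lower genes BEGAIN was at 28.4 and 173 CPM against 348 and 769 CPM (-2.60 ± 0.17, edgeR adjusted p = 6.72e-11). CRACDL, GADL1, ecmB.1 and BSG, which encodes the membrane protein basigin, were at 0.916 to 15 CPM in EYS-positive cells and 23.6 to 84.2 CPM in EYS-negative cells. FGFR2, FBN2 and MST1R had 0 to 3 UMIs in each EYS-positive sum. BEGAIN, the gene that defines its own group of clusters, was at 0.44 inside the GAD1 group (edgeR adjusted p = 0.14). The rule for the GAD1 group leaves out clusters rich in BEGAIN, so this value is not read as a result.

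Without cluster 9 the second comparison kept 74 genes higher and 120 lower, of which 24 and 103 were in the calls above. ACTN2 was then at 1.17 and GRHL2 at 0.91 (edgeR adjusted p = 0.14 and 0.49), while PRDM8 and TTN passed the adjusted p under 2-fold, at 0.73 and 0.75. Inside cluster 9 only 5 genes were higher and 8 lower, with 835 genes of 7702 at an unadjusted p under 0.05. There PRDM8 and TTN differed by 0.04 and 0.02 on the log2 scale. Because the EYS state was read after thinning, EYS-negative cells of cluster 9 include cells with an EYS UMI at full depth. The part of this in these values was not tested.

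**Figure D5:**
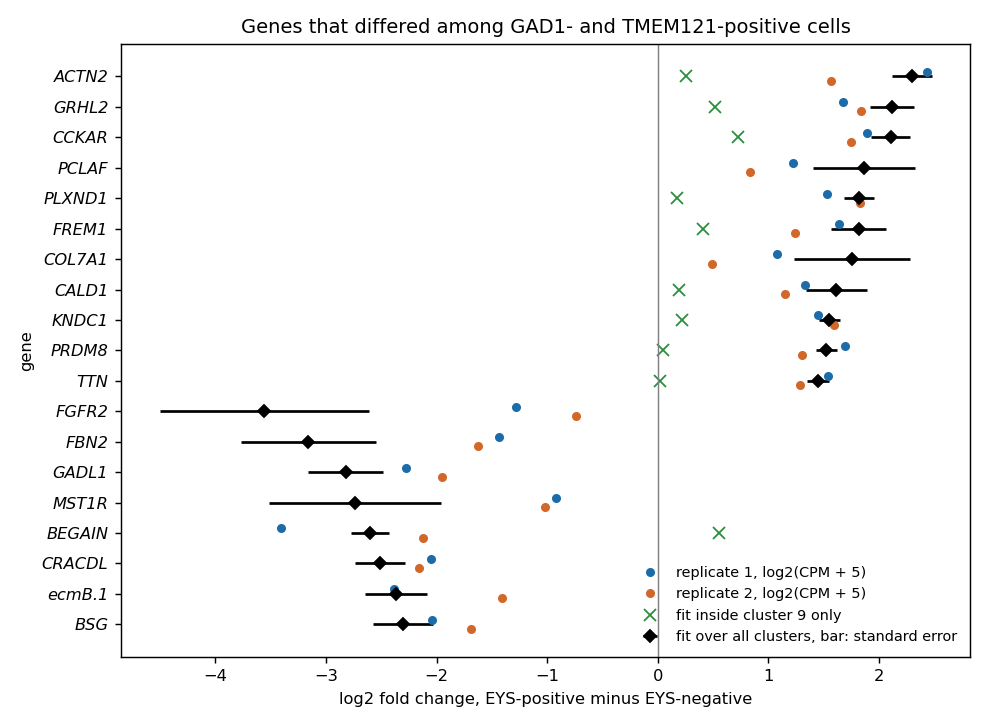
Log2 fold change (horizontal axis) between EYS-positive and EYS-negative cells among GAD1- and TMEM121-positive cells for genes named in the text. Diamonds are the edgeR fit with its SE, circles the libraries on the log2(CPM + 5) scale, and crosses the fit inside cluster 9 for the genes tested there, where PRDM8 is at 0.04 and TTN at 0.02.

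Genes of matriglycan, the sugar chain on dystroglycan that binds laminin G domains, did not pass the test. Of 10 tested in all GAD1-positive cells 0 were higher and 0 lower, with a median log2 difference of 0.20 beside -0.0045 over all genes. Of 9 tested in the TMEM121-positive cells 0 passed as well, with a median of 0.11 beside -0.014. At an unadjusted p under 0.05 edgeR gave 3 of the 10 and 0 of the 9, and DESeq2 called 0 in each. Over all genes tested, edgeR called 0.994% higher and 0.954% lower in the first comparison, and 1.86% and 2.59% in the second. DAG1, which encodes dystroglycan, was at 53.9 and 49.4 CPM in EYS-positive cells and 53.9 and 41.3 CPM in EYS-negative cells.

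Other genes with laminin G or EGF domains differed one by one. NELL1 was lower in EYS-positive cells in both comparisons (-1.06 ± 0.16 and -1.40 ± 0.31 on the log2 scale, edgeR adjusted p = 0.000137 and 0.00271). FAT4, a giant cadherin gene, was lower only among TMEM121-positive cells by the call (-1.11 ± 0.27, edgeR adjusted p = 0.00647), and the difference from its value in all GAD1-positive cells, 0.17 ± 0.10, was not tested. Without cluster 9 the TMEM121-positive values were -0.49 for NELL1 and -0.29 for FAT4 (edgeR adjusted p = 0.69 and 0.82), and without thinning NELL1 was at -0.15 in all GAD1-positive cells and -0.35 in the TMEM121-positive ones. LAMC1, which encodes a laminin gamma chain, passed the adjusted p but stayed under 2-fold, at 0.49 ± 0.10 and 0.90 ± 0.15. HSPG2 did so only among TMEM121-positive cells, at 0.87 ± 0.22 (edgeR adjusted p = 0.00876). In all GAD1-positive cells it was at 0.39 ± 0.15 (edgeR adjusted p = 0.13). NELL1 and FAT4 made 1 of 9 and 2 of 9 tested genes called lower, beside 0.954% and 2.59% over all genes tested. In each comparison 0 of 9 were called higher, beside 0.994% and 1.86%, and 3 and 5 were at an unadjusted p under 0.05. DESeq2 called 1 lower in all GAD1-positive cells and 0 in the TMEM121-positive ones.

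Of the Prominin, Crumbs and apical polarity genes, 0 of 7 were called in either comparison by edgeR or DESeq2, with 2 of 7 at an unadjusted p under 0.05 in each. CDH23, a cadherin gene of hair cell and photoreceptor links in jawed vertebrates, was at 197 and 130 CPM in EYS-positive cells against 117 and 86.9 CPM (0.67 ± 0.08, edgeR adjusted p = 1.22e-05), under the 2-fold limit. Its partner PCDH15 was at 64.9 and 66.3 CPM against 49.9 and 49.9 CPM. Photoreceptor cilium genes gave 0 calls of 12 and of 10 with edgeR and with DESeq2, and 1 and 0 were at an unadjusted p under 0.05. For both lists the edgeR shares over all genes tested were 0.994% higher and 0.954% lower, then 1.86% and 2.59%.

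Among transmitter genes, transporters of inhibitory transmitters were the ones called lower in EYS-positive cells. In the TMEM121-positive cells the glycine transporter genes SLC6A5 and SLC6A9 were lower by 1.77 ± 0.24 and 1.57 ± 0.21 on the log2 scale (edgeR adjusted p = 7.28e-06 and 6.27e-06). SLC6A5 was at 17.4 and 16.1 CPM against 79.9 and 33.8 CPM. With SLC32A1 these made 3 of 8 transmitter genes lower, and 0 of 8 were higher, with 5 at an unadjusted p under 0.05 and the same counts in DESeq2. Over all genes tested in these cells, 2.59% were lower and 1.86% higher in edgeR. Inside the GAD1 group of clusters SLC32A1 was at -0.30, SLC6A5 at -0.89 and SLC6A9 at -0.56 (edgeR adjusted p = 0.55, 0.12 and 0.27). The rule for that group leaves out clusters rich in SLC32A1, so the SLC32A1 value there is not read as a result. The part of this rule in the SLC6A5 and SLC6A9 values was not tested. Without cluster 9 SLC32A1, SLC6A5 and SLC6A9 were at -0.28, -0.98 and -0.78, all under 2-fold. Without thinning they were at -0.39, -0.72 and -0.56, also under 2-fold. SLC32A1 was at -0.42 with GAD1 from 3 UMIs (edgeR adjusted p = 0.25), and its call passed in 4 of 13 alternatives.

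Among transcription factor genes of retinal neurons, 2 of 10 (PRDM8 and FEZF1) were higher in all GAD1-positive cells and 1 of 9 (PRDM8) in the TMEM121-positive ones. Over all genes tested, 0.994% were higher in the first comparison and 1.86% in the second. In each comparison 0 of the transcription factor genes were called lower and 5 were at an unadjusted p under 0.05. DESeq2 called 1 higher and 0 lower. PRDM13 and ESRRG were lower in all GAD1-positive cells under the 2-fold limit, at -0.73 ± 0.11 and -0.63 ± 0.10 (edgeR adjusted p = 0.000175 and 0.000213). In the TMEM121-positive cells ESRRG was at -0.89 ± 0.12 (edgeR adjusted p = 5.31e-06), also under 2-fold. Of the marker lists of other cell types, 1 of 3 tested pigment epithelium genes, DCT, was higher in all GAD1-positive cells (1.10 ± 0.29, edgeR adjusted p = 0.0204), at 12.8 and 3.38 CPM against 6.25 and 1.39 CPM. Without cluster 46 DCT was at 0.56 (edgeR adjusted p = 0.45). Of 3 tested horizontal cell genes 1, LHX1, was lower in the TMEM121-positive cells (-1.50 ± 0.42, edgeR adjusted p = 0.0172), beside 2.59% of all genes tested. DESeq2 called neither DCT nor LHX1. The part of these cell types in the comparisons was not tested.

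Across the 49 clusters the level of EYS went only loosely with its gating genes. Pearson's r of the log2(CPM + 5) level was 0.12 with TMEM121 and 0.29 with CXCL14, across clusters that share the same libraries and are not independent. Of 5368 genes with at least 50 UMIs in each library, the named genes most like EYS were PER1, a circadian clock gene (r = 0.63), ADGRB3.1, an adhesion receptor gene (0.62), ARMC4, THSD7A, FAM227B, EML1, FIBIN and LHPP (0.56). The 99th percentile over all genes was 0.48 and the median 0.11. Of these 8 genes 3 remained among the closest without replicate 1 and 5 without replicate 2.

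ADGRB3.1 is also a neighbour of EYS. In the RefSeq annotation of another assembly (UKy_Petmar_22M1.pri1.0), used here only for gene order, 1 gene lies between their starts, LOC116946554, which falls inside EYS and was not analysed under its own name, so that its reads and those of EYS cannot be told apart. ADGRB3.1 was at 1860 and 2120 CPM in cluster 46, 1450 and 1363 CPM in cluster 9 and 420 and 390 CPM in cluster 14, against 590 CPM in the median cluster. Other entries numbered beside EYS in the deposited list, LOC116946551, LOC116946555 and MSTRG.5967, had lower correlations with it (r = 0.25, -0.01 and 0.18). GRHL2 lies on the same chromosome, 11 genes away. It was at 57.8 and 56.0 CPM in cluster 9, at 0 and 1.44 CPM in cluster 46 and at 2.86 and 2.32 CPM in cluster 14, so it followed EYS in cluster 9 and not in cluster 46.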

How the data were processed

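The authors aligned reads of each 10x Genomics library with Cell Ranger (6.0.1 in the submitters' processing notes, 7.0.1 in the file header) to a lamprey reference extended with a retina transcriptome, and deposited UMI counts per gene and cell barcode without normalization. Whether intronic reads were counted is not given in the sources used here. Barcodes with fewer than 500 UMIs or 330 genes, or over the study's upper gene limit, were removed. No doublet caller was run, and the upper limit removed 0 barcodes, so doublets remain in the data.

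EYS, GAD1 and the lists were chosen with earlier results of these data known. Levels are summed UMIs per 1e6 UMIs (CPM). Names came from the first 1998 entries of the study's annotation table, the deposited list and RefSeq, covering 8013 genes. Cells were clustered on Pearson residuals of 3000 variable genes, without EYS, the gating genes and the markers (44 genes), with 50 principal components, an own Harmony and Louvain partition (Python 3.11.15, scikit-learn 1.9.0, igraph 0.11.9). Groups of clusters were set after the values were seen, by 1 gene each in at least 10% (RCVRN, CHTF18, HES1, POU4F2) or 70% (BEGAIN, SLC5A7, SLC32A1, GAD1) of cells. The genes were checked in this order and the first that passed named the group. The GAD1 group therefore leaves out clusters that passed for BEGAIN or SLC32A1.

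For the tests each cell was thinned to 4000 UMIs (11721 shallower cells left out) and summed by EYS state and library. Sums were compared with edgeR 4.0.16 in R 4.3.3 (TMM, filterByExpr, glmQLFit and glmQLFTest, library as block) and Benjamini-Hochberg adjustment, tested on simulated data first. EYS, GAD1, TMEM121 and CXCL14 were not read as results. The block is given by the design, since both states come from the same library. With 2 libraries and the block, p-values measure only how evenly the difference between the EYS states repeated in these libraries. The study describes the libraries as biological replicates, but the labels do not tie them to animals. Genes named were the 12 of largest fold higher and 8 lower that moved the same way in both libraries, called list members, and the 8 of highest correlation with EYS. Some genes that met these rules are not reported here. Alternatives were DESeq2 1.42.0, other normalization, filters, thinning, gates and cluster settings, and leaving out each library.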

Additional observations from a re-analysis of the deposited data

How the results depend on the processing

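The EYS ratios and the share of EYS UMIs in GAD1-positive cells differed between the libraries, so leaving out each in turn moved them. The TMEM121 ratio ran from 1.36 (without replicate 1) to 3.23 (without replicate 2), the CXCL14 ratio from 2.52 to 5.28, the ratio of cells with both genes to gated cells from 2.45 to 5.66, and the share from 89.7% to 91.6%. The share was 85.7% in cells thinned to 4000 UMIs and 83.1% with gates of at least 2 UMIs. Without cluster 9, chosen after seeing the data, the values were 0.789, 1.14, 1.29 and 86.2%. Of the 8 genes most like EYS, 4 remained with Spearman's correlation and 3 to 5 when a library was left out.

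The replicate block decided the counts of genes. In all GAD1-positive cells, 149 higher and 143 lower genes became 0 and 0 without the block (1079 genes at an unadjusted p under 0.05), and in TMEM121-positive cells 228 and 318 became 138 and 84. The cause was not tested. Each count has 4 sums, so leaving out a library left no residual degrees of freedom and was not run for them.

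DESeq2 called 98 and 60 in all GAD1-positive cells and 148 lower in TMEM121-positive cells. EYS-positive from 2 UMIs gave 247 and 229, and 513 lower in TMEM121-positive cells. Settings added after seeing the data gave, in clusters of the GAD1 group only, 87 lower and 185 lower, inside cluster 9 only 2 and 3, and 5 and 8, and without cluster 9, in TMEM121-positive cells, 74 and 120. The fits inside cluster 9 used fewer cells, and neither the part of cell number nor another cause was tested.

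Single genes that turned direction (log2 fold change) in all GAD1-positive cells were CHRNG (-1.04 with GAD1 from 3 UMIs, -0.70 without photoreceptor-gated cells, -0.68 in the GAD1 group), PTX3 (-1.08 with EYS from 2 UMIs, -0.10 with GAD1 from 3 UMIs, -0.12 in the GAD1 group), INSM1 (0.64 thinned to 2000 UMIs, 0.10 unthinned), COL14A1 (0.16 thinned to 2000 UMIs), RCVRN (-1.18 with EYS from 2 UMIs, and on the log2(CPM + 5) scale -0.11 without replicate 2 against 1.05 without replicate 1), MYOM1 (-0.36 inside cluster 9) and BEGAIN (0.16 in the GAD1 group, 0.56 inside cluster 9). In TMEM121-positive cells they were BEGAIN (0.44 in the GAD1 group, 0.55 inside cluster 9), CRACDL (0.13 in the GAD1 group) and BSG (0.53 in the GAD1 group). Of 706 such values for single genes, 518 kept their call or, for a library left out, their direction, 170 kept the direction without the call and 18 turned. Depth and make-up limit the photoreceptor clusters, where 8 and 36 EYS UMIs carry the level.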
